A study of Mus musculus with 12 samples.

Results

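The Hox genes are the homeobox genes that lie in 4 clusters of the mouse genome, HoxA on chromosome 6, HoxB on chromosome 11, HoxC on chromosome 15 and HoxD on chromosome 2. Members were the protein-coding genes whose symbols begin with Hoxa, Hoxb, Hoxc or Hoxd followed by a number, and 38 of the 21755 coding genes on autosomes and the X chromosome are described. There were 10 members in HoxA, 10 in HoxB, 9 in HoxC and 9 in HoxD. For each member the presence of a peak at the promoter was read in 12 DNase-seq libraries, and peaks were also counted across each cluster with 50 kb of flanking sequence.

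DNase-seq maps open chromatin, since DNase I cuts DNA where nucleosomes leave it exposed, and each such place is a DNase I hypersensitive site (DHS). All cells derived from C57BL/6J (Ly5.2) mice. LSK cells (3 libraries), the lineage-negative SCA1+KIT+ stem and progenitor cells, were sorted from lineage-depleted marrow and not cultured. The other groups started from LSK cells grown with 4GF, a mix of SCF, FLT-3 ligand, IL-6 and IL-11. DN1 cells (KIT++CD44+CD25-, 2 libraries) were sorted from culture on the immobilized Notch ligand Delta1, used at high density for all DN cells. DN2a cells (KIT++CD44+CD25+, 2 libraries) and DN2b cells (KIT+CD44loCD25+, 2 libraries) were sorted from Delta1 culture that also received IL-7, so stage and IL-7 cannot be told apart between DN1 and DN2. The IgG group (3 libraries) is the culture of LSK cells on human immunoglobulin with no Notch ligand. For it the study describes no sort by stage and no IL-7. Ligand therefore cannot be told apart from these in contrasts of IgG with Delta1-cultured libraries. Each LSK isolate gave rise to DN1, DN2a and DN2b cells, so some libraries share an isolate, and which do is not in the labels. Every library is a pool of sorted or cultured cells, in which fewer open cells and less open chromatin per cell cannot be told apart.

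Hox proteins are transcription factors that bind DNA through a homeodomain, often together with PBX and MEIS proteins. They are best known for patterning the body axis, where genes at one end of a cluster act in the head and genes at the other end act in the tail. In blood, genes of the HoxA and HoxB clusters such as Hoxa9 and Hoxb4 are active in stem and progenitor cells and decline as cells mature. The MLL (Kmt2a) complex maintains their activity, and Polycomb complexes keep silent clusters closed.

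A promoter was called open when the gene record began no more than 1 kb from the midpoint of a peak. It was called closed when no such peak was listed. The height of a promoter is given as the percentile of its highest-scoring peak among all peaks of that library, with 0 where there was no peak. A percentile of 90 therefore means that the peak outscored 90 of every 100 peaks of its library. Read depth is unknown, because each library is a list of peaks with no read totals. The lists held from 32952 peaks in an IgG library to 111582 in a DN2b library, a 3.39-fold range, and all 3 IgG lists were shorter than every other list. Counts were therefore also taken at equal list lengths, for which every list was reduced to its 32952 peaks of highest score. Marker promoters were read in the same way. Of 8 T lineage promoters (Cd3e, Bcl11b and Il2ra among them) 1 or 2 were open in LSK libraries and 4 in DN1. In DN2a 7 were open, in DN2b all 8, and 0 in IgG. Of 8 stem and progenitor promoters 4 or 5 were open in LSK, 4 in DN1, 4 and 3 in DN2a, 4 and 5 in DN2b and from 1 to 3 in IgG, Mecom and Ly6a being open in none of the 12 libraries. Of 6 myeloid promoters 2 or 3 were open in LSK, 3 in every Delta1-cultured library and 3, 4 and 5 in the IgG libraries. Of 4 mast cell promoters 1, Cpa3, was open in all LSK and Delta1-cultured libraries and none was open in IgG, and no B cell promoter of 4 was open anywhere.

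Sequences are shown for 8 sites that carried much of what follows outside untranslated regions. They include the start of Hoxa3, which had no peak in DN2 cells, sites open in every library and sites open only in some groups. The Hoxa5 and Hoxa9 sites lie in untranslated regions and are not shown. Each line gives the central bases of a DHS on the plus strand of GRCm38 (mm10), read from the RefSeq copy of that assembly. Capitals mark a match, on either strand, to the CTCF core (CC, any 3 bases, AG, any 2 bases, GGC) or to the RBPJ motif (TGGGAA), the only motifs of 8 searched that occur in these lines. CTCF is the factor that anchors chromatin loops, and RBPJ is the DNA-binding partner of Notch.
Hoxa3 upstream start site, chr6:52213357-52213506: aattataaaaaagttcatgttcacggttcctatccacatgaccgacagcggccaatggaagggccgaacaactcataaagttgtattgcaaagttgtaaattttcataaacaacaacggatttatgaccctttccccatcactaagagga
Hoxa4 upstream edge, chr6:52191877-52192026: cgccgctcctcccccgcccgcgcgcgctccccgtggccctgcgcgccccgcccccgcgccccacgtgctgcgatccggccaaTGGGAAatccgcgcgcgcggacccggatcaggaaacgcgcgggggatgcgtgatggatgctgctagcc
Hoxa7 inner start, chr6:52217506-52217646: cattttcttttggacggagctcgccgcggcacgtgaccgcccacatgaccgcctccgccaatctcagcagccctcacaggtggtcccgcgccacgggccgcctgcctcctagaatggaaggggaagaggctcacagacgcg
Hoxb5 upstream edge, chr11:96303197-96303346: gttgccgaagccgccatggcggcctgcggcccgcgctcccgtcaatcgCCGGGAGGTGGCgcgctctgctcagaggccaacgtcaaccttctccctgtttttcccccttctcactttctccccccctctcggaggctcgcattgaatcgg
Hoxb9 to Hoxb8 interval, chr11:96278867-96279016: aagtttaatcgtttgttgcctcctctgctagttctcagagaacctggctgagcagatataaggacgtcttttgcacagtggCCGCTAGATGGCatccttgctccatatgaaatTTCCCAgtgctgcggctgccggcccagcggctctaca
Hoxc8 upstream site, chr15:102987527-102987676: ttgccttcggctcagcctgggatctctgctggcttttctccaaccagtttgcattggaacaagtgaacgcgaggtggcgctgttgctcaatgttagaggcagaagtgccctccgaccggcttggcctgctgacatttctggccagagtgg
Hoxd13 to Hoxd12 interval, chr2:74673107-74673256: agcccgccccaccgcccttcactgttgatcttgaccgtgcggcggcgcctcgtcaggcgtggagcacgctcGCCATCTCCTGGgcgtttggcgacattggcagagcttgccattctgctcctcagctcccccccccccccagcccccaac
Hoxd3os1 exon, chr2:74715877-74716026: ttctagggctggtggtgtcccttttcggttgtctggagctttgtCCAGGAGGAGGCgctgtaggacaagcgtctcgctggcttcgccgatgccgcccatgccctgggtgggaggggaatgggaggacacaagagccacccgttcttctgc
The CTCF core occurred in the central 150 bp of 18743 of the 170207 DHSs of the whole series (11%) and in 8 of the 80 DHSs of the Hox windows (10%). The RBPJ motif occurred in 12.8% of all DHSs and in 12 of the 80 (15.0%). The GATA-factor motif (AGATAA) occurred in 8.25% of all DHSs and 3.75% of the 80, the RUNX motif (TGTGGT) in 23.1% and 17.5%, and the ETS-family motif (AGGAAG) in 33.5% and 26.3%. The TCF/LEF motif (CTTTGA) occurred in 11.2% and 5%, the PBX-HOX motif (TGATTNAT) in 1.58% and 2.5%, and the MEIS motif (TGACAG) in 12.8% and 10%. A match is a run of letters only, and matches of different motifs can share bases.

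Most Hox promoters had no peak in any of these cells. Of the 38 promoters, 14 were open in at least 1 library, beside 62.5% of all coding promoters, and 24 were open in none, beside 37.5%. Of the HoxA promoters 7 of 10 were open at least once, beside 3 of 10 in HoxB, 3 of 9 in HoxC and 1 of 9 in HoxD. Only Hoxa7, Hoxb4 and Hoxb5 were open in all 12 libraries, beside 36.2% of all coding promoters. The number of open Hox promoters per library was 10, 11 and 10 in LSK, 10 and 9 in DN1, 9 and 4 in DN2a, 5 and 10 in DN2b and 9, 7 and 6 in IgG. LSK libraries averaged 10.3 ± 0.577 (SD, n = 3) and DN1 libraries 9.5 ± 0.707 (SD, n = 2). DN2a averaged 6.5 ± 3.54 and DN2b 7.5 ± 3.54 (SD, n = 2 each), and IgG averaged 7.33 ± 1.53 (SD, n = 3). The DN2 libraries with the higher counts were also those with the longer peak lists of their groups. At equal list lengths the counts were 9, 9 and 9 in LSK, 4 and 6 in DN1, 3 and 2 in DN2a, 1 and 1 in DN2b and 9, 7 and 6 in IgG. At that setting no DN2 library reached the lowest LSK, DN1 or IgG library. The share of all coding promoters that were open at equal lengths lay between 40.9% and 46.1% in every library.

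**Figure D1:**
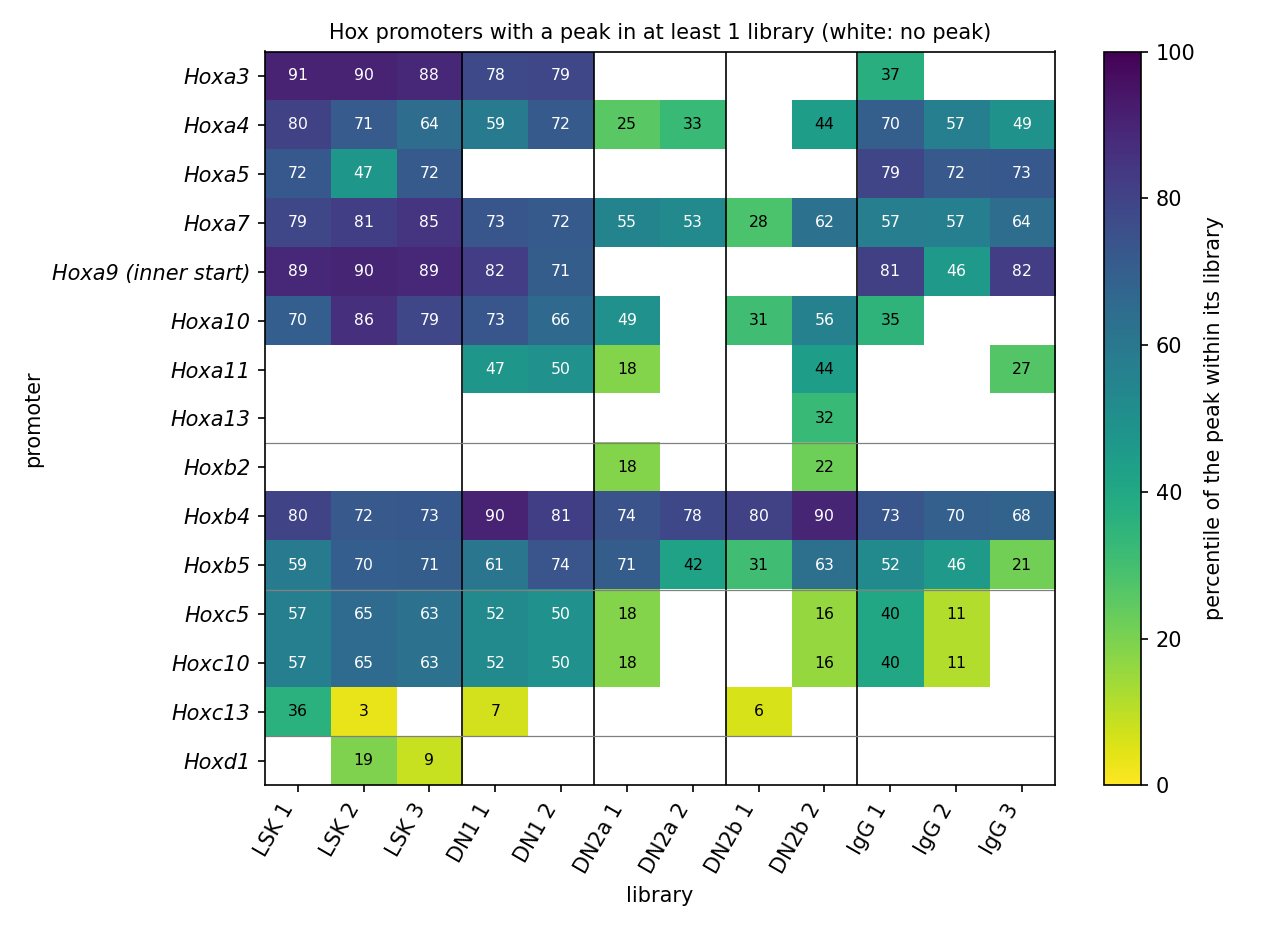
Percentile of the promoter peak within its library (colour and printed number, white where there was no peak) for the 14 Hox promoters open in at least 1 library and for the inner start of Hoxa9, with libraries in columns by group. Hoxa3 and the inner Hoxa9 start are white in all 4 DN2 libraries, Hoxa5 is white in all 6 Delta1-cultured libraries, and Hoxb4 lies between 68.1 and 90.1 throughout.

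Hoxa5, a gene of the middle of HoxA known for lung and blood development, had an open promoter in LSK and IgG cells and a closed one in every Delta1-cultured library. Its record (ENSMUSG00000038253.6) spans chr6:52201754-52204587 on the minus strand, and the peak lay in its 5' untranslated region. In LSK libraries the peak stood at percentiles 72.4, 47.0 and 71.6, and in IgG libraries at 79.2, 72.0 and 72.6. It was missing from both DN1, both DN2a and both DN2b libraries. The groups did not overlap, as held in this direction for 0.323% of all promoters tested. The mean difference of Delta1-cultured libraries from LSK and IgG libraries was -69.1 percentile points (6 against 6 libraries, two-sided exact permutation test, p = 0.00216, the smallest this design allows, Benjamini-Hochberg adjusted p = 0.0272 over 13606 promoters). Of all promoters tested, 0.588% were called lower in the Delta1-cultured libraries and 12.8% were called higher, and Hoxa5 was the only Hox promoter called of 14 tested. Only 8 coding promoters of 21755 (0.0368%) shared this pattern of peaks in the LSK and IgG libraries alone, all 6 of them, and Hoxa5 was 1 of them.

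Hoxa5 was also called in further comparisons that share libraries with the first. IgG cells exceeded Delta1-cultured cells by 74.6 percentile points (exact permutation test, p = 0.0119, adjusted p = 0.0309), a contrast in which 1% of promoters were called higher and 37.5% lower in IgG. Across the 5 groups eta squared, the part of the variance that lies between groups, was 0.97 (exact permutation test that divides the libraries into 5 groups in every way, adjusted p = 0.0243). A contrast of IgG against all other libraries, chosen after seeing the data, also called it higher (by 53.4 points, exact permutation test, adjusted p = 0.0248), beside 1.15% of all promoters. That call was lost in 9 of the 12 fits that left out 1 library, those without an IgG or Delta1-cultured library (adjusted p up to 0.138), and with presence alone. The adjusted p of the first contrast rose above 0.05 when any 1 of the 6 Delta1-cultured libraries was left out, to at most 0.0902, although the difference stayed at -69.1 points in each case. With presence alone in place of the percentile it was 0.364. With the upper 50% of each list the difference was -39.2 points (exact permutation test, adjusted p = 0.0724). By the same exact permutation tests, the 5-group call was lost at equal list lengths (adjusted p = 0.0615) and in the upper 50% (adjusted p = 0.0789), and that of IgG against Delta1-cultured cells at equal lengths (adjusted p = 0.0558). Leaving out 1 library ended the 5-group call in 9 of 12 fits, those without any library other than LSK (adjusted p from 0.0582 to 0.0847), and that of IgG against Delta1-cultured cells without any 1 IgG library (from 0.0782 to 0.0886). With presence alone both were lost (exact permutation tests, adjusted p = 0.195 and 0.253).

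Hoxa3 was open at its record start in LSK and DN1 cells and closed there in all DN2 cells. Its record (chr6:52169062-52213336, minus strand, ENSMUSG00000079560.13) starts far upstream of the shorter Hoxa3 transcripts, between Hoxa6 and Hoxa7, and the peak there, whose sequence is given above without a motif match, lies in a Hoxaas3 exon, a gene that makes no protein. In LSK libraries the peak stood at 90.6, 90.2 and 88.3 and in DN1 libraries at 77.8 and 78.6. In all 4 DN2 libraries there was none, and among IgG libraries 1 had a peak, at 37.5. Counting every coding start of Hoxa3 left these values unchanged. The 5 groups accounted for an eta squared of 0.953 (exact permutation test, adjusted p = 0.0405), beside 20.2% of all tested promoters called in the same test and 3 Hox promoters, Hoxa3, Hoxa5 and Hoxa7. That adjusted p rose above 0.05 in 9 of the 12 fits that left out 1 library, those without an LSK, DN1, DN2a or DN2b library, and reached at most 0.0849. It was 0.0647 with no filter on promoters and 0.642 with presence alone. Only 45 coding promoters (0.207%) were open in all LSK and DN1 libraries and in no DN2 library, Hoxa3 being the only Hox gene among them.

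Hoxa9, the Hox gene best known for sustaining haematopoietic progenitors and myeloid leukaemia, had no peak within 1 kb of the start of its record. Its record (chr6:52223100-52231089, minus strand, ENSMUSG00000038227.15) also holds an inner start, and a DHS lay at an offset of -33 bp from it, where negative offsets are upstream. That DHS stood at 88.9, 89.8 and 88.8 in LSK, at 82.0 and 70.6 in DN1 and at 81.1, 45.9 and 81.9 in IgG. It was missing from all 4 DN2 libraries. Of all consensus DHSs, 0.179% were open in every LSK, DN1 and IgG library and in no DN2 library, and with every coding start counted 12 promoters of 21755 (0.0552%) had that pattern, Hoxa9 among them. With every start counted, DN2 libraries differed by -84.0 percentile points from LSK and DN1 libraries (exact permutation test, p = 0.00794, adjusted p = 0.326), and the 5-group eta squared was 0.949 (adjusted p = 0.025).

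In the deposited lists 4 further promoters stood lower in DN2 cells than in LSK and DN1 cells with no overlap between the groups. Hoxa4, whose protein is of the same group as HOXB4, stood at 80.3, 71.1 and 64.3 in LSK, 59.4 and 71.7 in DN1, 25.5 and 32.6 in DN2a, 0 and 44.2 in DN2b and 69.8, 56.9 and 48.9 in IgG. It was the only Hox promoter at a record start whose 4 DN2 values all lay below all 8 other libraries, beside 0.478% of all promoters tested. At equal list lengths Hoxa4 had no peak in the first DN1 library or in any DN2 library, so that separation was lost. Hoxa7, which sits beside Hoxa9, stood at 78.9, 81.4 and 84.7 in LSK, 73.4 and 71.7 in DN1, 54.9 and 52.5 in DN2a, 28.2 and 62.2 in DN2b and 57.1, 56.9 and 64.2 in IgG. Its IgG values thus overlapped with DN2 and not with LSK or DN1, and its 5-group eta squared was 0.765 (exact permutation test, adjusted p = 0.0466, and from 0.0916 to 0.127 in the 10 fits that left out a library other than DN2b). At equal list lengths Hoxa7 stood at 51.2, 56.9 and 59.2 in IgG, 22.0 and 40.3 in DN1 and from 0 to 16.9 in DN2. The IgG values of Hoxa7 then lay above all DN1 and DN2 values and below all LSK values. Hoxa10, a neighbour of Hoxa9 also active in progenitors, stood at 70.1, 86.3 and 78.7 in LSK, 73.4 and 65.9 in DN1, 49.3 and 0 in DN2a, 30.8 and 55.9 in DN2b and 34.9, 0 and 0 in IgG. Of its 3 IgG libraries 2 had no peak at all. In the 5-group exact permutation test it was called at equal list lengths (adjusted p = 0.0436) and in the upper 50% (adjusted p = 0.032). The shared promoter of Hoxc10 and the long Hoxc5 transcript, described with HoxC, was the other.

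No Hox promoter was called in the contrast of DN2 against LSK and DN1. In that contrast 6 of the 14 tested Hox promoters (Hoxa3, Hoxa4, Hoxa7, Hoxa10, Hoxc5 and Hoxc10, the last 2 through 1 shared peak) lay lower in DN2 without overlap, beside 2.17% of all promoters tested, and none lay higher, beside 1.71%. The smallest p that 4 against 5 libraries allow, 0.00794, was reached by these 6, but its adjusted value was 0.354, and 0% of promoters were called in either direction. At an unadjusted p under 0.05 there were 6 Hox promoters and 1231 promoters in all (9.05%). The differences were -85.1 points for Hoxa3, -48.7 for Hoxc10, -43.8 for Hoxa4, -40.8 for Hoxa10 and -28.5 for Hoxa7. The median difference was -21.7 over the 14 Hox promoters and 0.0892 over all promoters tested. At equal list lengths Hoxa3, Hoxa7 and Hoxa10 lay lower in DN2 without overlap. Hoxa4 was then at 0 in the first DN1 library, and the shared Hoxc5 and Hoxc10 peak in both, as in all DN2 libraries. In the contrast of LSK against all cultured libraries 4 Hox promoters lay higher in LSK without overlap (Hoxa3, Hoxa7, Hoxc5 and Hoxc10), beside 3.03% of all, and none was called (smallest adjusted p = 0.183, 0% called among all promoters, 6 of 14 Hox promoters at an unadjusted p under 0.05 by the exact permutation test, beside 7.41% of all). At equal list lengths the Hoxc5 and Hoxc10 values in LSK overlapped with those in IgG. The 2 contrasts share their LSK, DN1 and DN2 libraries.

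**Figure D2:**
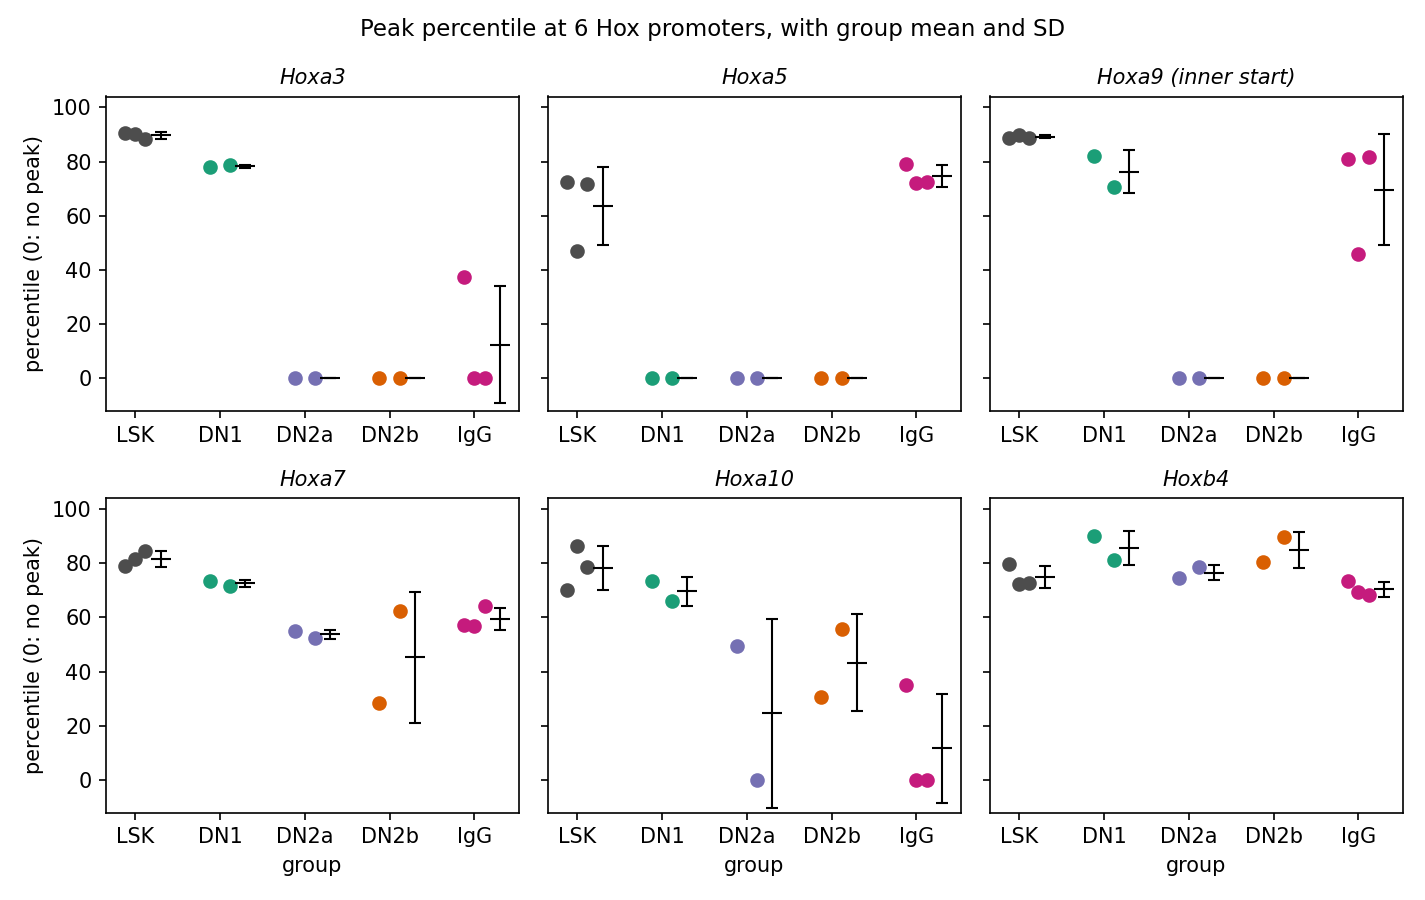
Percentile of the promoter peak in each library (points, 0 where there was no peak) by group for Hoxa3, Hoxa5, the inner start of Hoxa9, Hoxa7, Hoxa10 and Hoxb4, with the group mean and SD beside the points. Hoxa3 and Hoxa9 are at 0 in both DN2 groups, Hoxa5 is at 0 in DN1, DN2a and DN2b, and Hoxb4 means run from 70.4 in IgG to 85.7 in DN1. These values are from the deposited lists, and at equal list lengths Hoxb4 means run from 54.6 in DN2a to 67.7 in IgG.

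The remaining HoxA members showed little or nothing. Hoxa11, a gene of the limb and uterus end of the cluster, stood at 47.2 and 49.5 in DN1, at 18.4 in 1 DN2a library, at 44.2 in 1 DN2b library and at 26.8 in 1 IgG library, with no peak in LSK. Both DN1 libraries thus exceeded all LSK libraries there, and DN2 and IgG libraries varied within their groups. At equal list lengths only the IgG library kept its peak. Hoxa13, the outermost gene, had a peak in 1 DN2b library only, at 32.2, the library with the longest list. Hoxa2 and Hoxa6 were closed in all 12 libraries. A second Hoxa7 site, at an offset of -67 bp from an inner start of that gene and shown above, stood at 86.4, 84.0 and 87.3 in LSK, 84.1 and 86.4 in DN1, 49.3 and 0 in DN2a, 0 and 64.1 in DN2b and 72.6, 0 and 62.8 in IgG. LSK and DN1 values there lay above all DN2 and IgG values.

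In HoxB the promoters of Hoxb2, Hoxb4 and Hoxb5 were open in at least 1 library. Hoxb4, known for expanding blood stem cells when overexpressed, was open in every library, at 79.6, 72.2 and 72.7 in LSK, 90.1 and 81.3 in DN1, 74.5 and 78.5 in DN2a, 80.3 and 89.6 in DN2b and 73.4, 69.5 and 68.1 in IgG. It was the only Hox promoter open in all 12 libraries at equal list lengths as well. The Delta1-cultured mean of 82.4 exceeded that of LSK and IgG by 9.79 points, which fell short of the threshold (exact permutation test, p = 0.00866, adjusted p = 0.0563) and passed it when the first LSK library was left out (adjusted p = 0.0333). Hoxb5, a marker of long-term stem cells, stood at 58.6, 70.0 and 70.6 in LSK, 60.7 and 73.7 in DN1, 70.6 and 42.3 in DN2a, 30.8 and 63.2 in DN2b and 52.4, 45.9 and 21.2 in IgG. Its groups overlapped, except that all 3 IgG values lay below all LSK and DN1 values. At equal list lengths Hoxb5 stood at 32.3, 50.4 and 44.3 in LSK, 0 and 44.6 in DN1 and 45.8, 45.9 and 10.3 in IgG. There IgG overlapped with LSK and DN1 as well. Hoxb2 had a peak in 1 DN2a library (18.4) and 1 DN2b library (22.2) and in no other.

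Hoxb3, Hoxb1, Hoxb6, Hoxb7, Hoxb8, Hoxb9 and Hoxb13 had no promoter peak in any library. Hoxb3 is a neighbour of Hoxb4 that is also active in progenitors, and its promoter remained closed with every coding start counted. A DHS within an intron of Hoxb6 was nevertheless open in 10 libraries, at 63.5, 65.0 and 74.6 in LSK, 47.2 and 45.2 in DN1, 39.3 and 46.5 in DN2a, 47.0 and 64.1 in DN2b and 0, 0 and 5.01 in IgG. Between HoxB genes 2 sites were open in every library. The first lies between Hoxb9 and Hoxb8, at an offset of -2.96 kb from Hoxb8, and holds the CTCF core and the RBPJ motif marked above. It stood from 64.6 to 79.9 in LSK and DN1, from 49.0 to 76.2 in DN2 and at 9.68, 50.5 and 26.8 in IgG. The second, at -6.57 kb from Hoxb4, stood from 51.3 to 85.8 outside IgG and at 52.4, 40.9 and 50.9 in IgG. The Hoxb5 promoter site also holds a CTCF core, as its sequence shows.

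In HoxC the starts of Hoxc10 and of the long Hoxc5 transcript lie within 1 kb of each other (chr15:102966796-102971893 and chr15:102967443-103017429, plus strand). Both had the same highest-scoring peak, of at most 2 peaks per library in either window. Hoxc10 is known from the hind body. The peak stood at 56.8, 65.0 and 62.8 in LSK, 52.2 and 49.5 in DN1, 18.4 and 0 in DN2a, 0 and 15.8 in DN2b and 39.9, 11.4 and 0 in IgG. In the deposited lists LSK and DN1 libraries were above all DN2 and IgG libraries, and the 5-group eta squared was 0.84 (exact permutation test, adjusted p = 0.0551). At equal list lengths the peak stood at 29.4, 42.1 and 29.7 in LSK and at 31.6, 11.4 and 0 in IgG. It was then missing from both DN1 libraries and from all DN2 libraries, so that separation was lost. With every coding start counted in the deposited lists, Hoxc5 was open in 11 libraries and Hoxc10 in 9. Through its inner start Hoxc5 then stood at 30.3 and 12.5 in DN2a and 23.0 and 44.2 in DN2b. These DN2 values also lay below all LSK and DN1 values of Hoxc5. Hoxc13, a gene of hair and nails at the outer end, had low peaks in 4 libraries, at 36.0 and 3.39 in LSK, 6.79 in DN1 and 5.92 in DN2b, and none of these remained at equal lengths. Hoxc4, which neighbours the inner Hoxc5 start and is active in lymphoid cells, had no peak at its record start and 1 peak in a DN1 library (19.6) with every start counted. Hoxc6, Hoxc8, Hoxc9, Hoxc11 and Hoxc12 had none. The HoxC site open in all 12 libraries lies in an intron of the long Hoxc5 transcript, at -3.01 kb from Hoxc8. It stood at 48.6, 68.8 and 65.6 in LSK, 75.8 and 53.4 in DN1, 45.5 and 30.2 in DN2a, 33.3 and 71.6 in DN2b and 29.5, 17.0 and 13.1 in IgG, so that IgG was lowest.

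HoxD promoters were closed except that of Hoxd1. Hoxd3, Hoxd4, Hoxd8, Hoxd9, Hoxd10, Hoxd11, Hoxd12 and Hoxd13 had no promoter peak in any library. Hoxd1 had a low peak in 2 of 3 LSK libraries, at 19.3 and 8.55, and in no other, and neither remained at equal list lengths. Peaks between the HoxD genes were present in all LSK and Delta1-cultured libraries and in no IgG library. The site in an exon of Hoxd3os1, a non-coding gene, with the CTCF core shown above, stood at 48.6, 55.4 and 58.1 in LSK, 80.4 and 58.6 in DN1, 51.3 and 30.2 in DN2a and 61.8 and 76.8 in DN2b. A site in an exon of Haglr, the non-coding transcript between Hoxd3 and Hoxd1, stood from 7.76 to 63.2 in the same 9 libraries. Neither had a peak in IgG, a pattern of 3.17% of all DHSs. The site between Hoxd13 and Hoxd12, also with a CTCF core, was open only in LSK, at 30.2, 34.5 and 32.1, a pattern (every LSK library and no other) of 0.649% of all DHSs and of no other Hox DHS. These percentiles lie below the cut made in the LSK lists at equal lengths, so none of its peaks remained there.

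**Figure D3:**
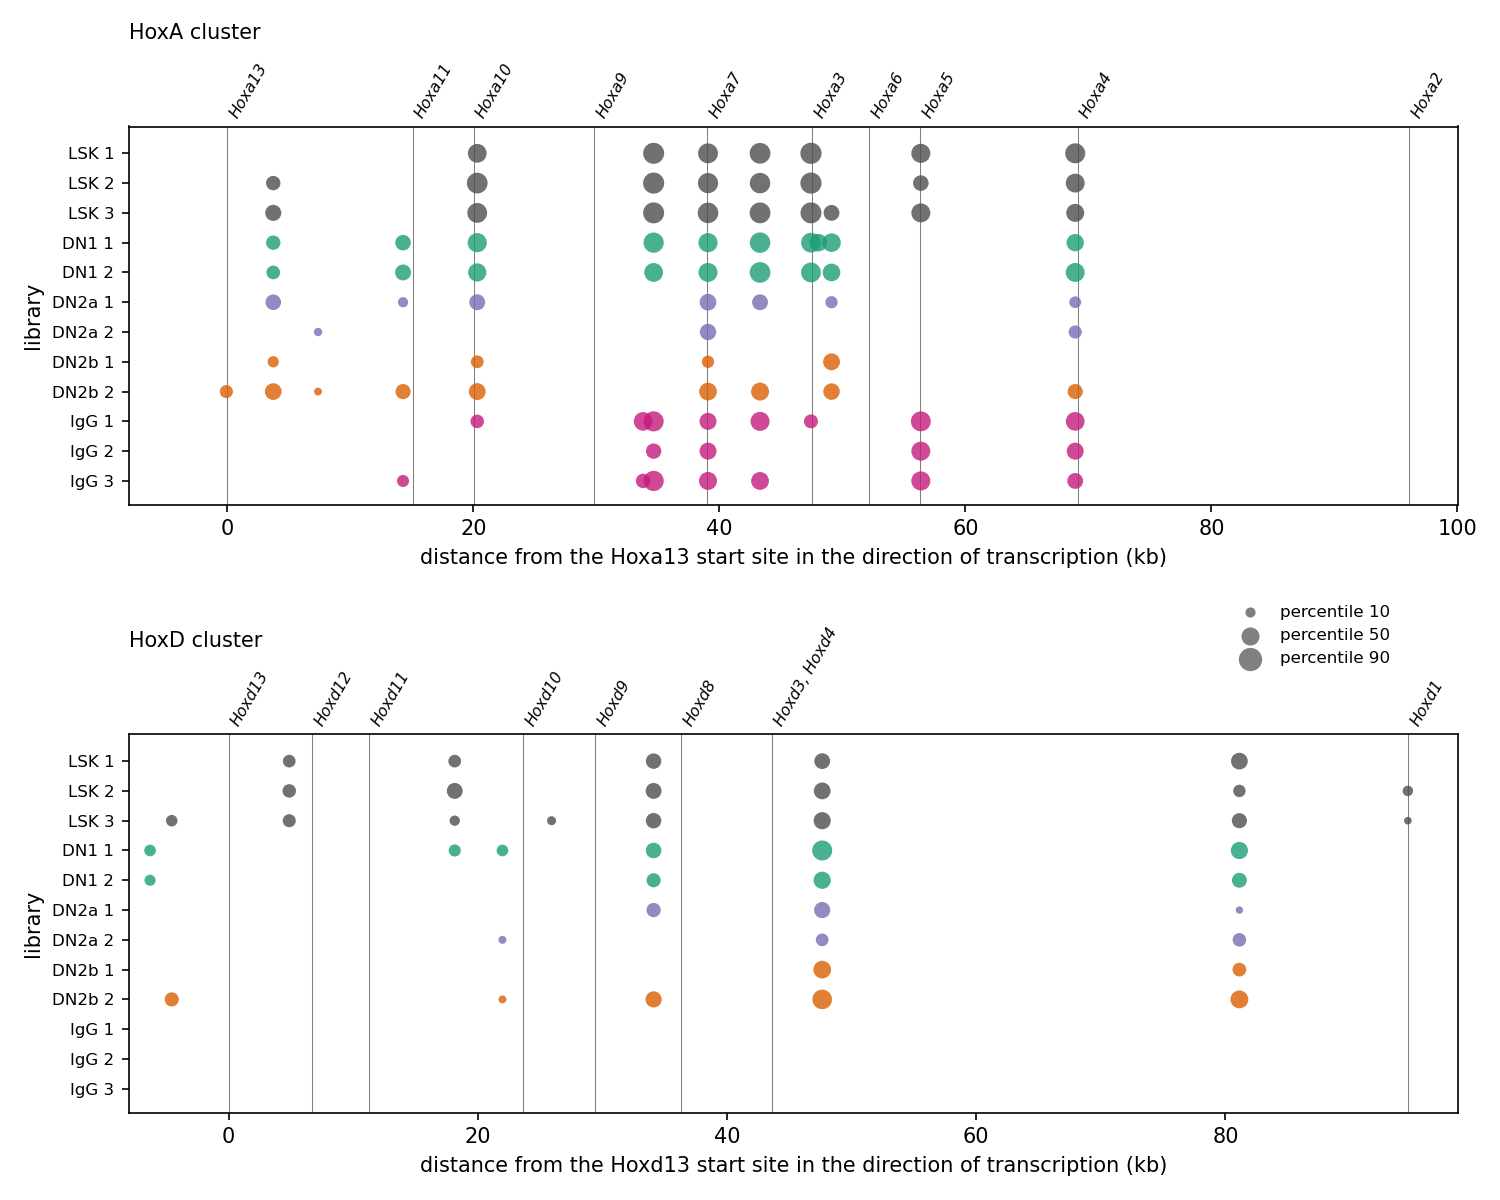
Peaks along HoxA and HoxD in each library (rows, coloured by group), with the distance in kb from the start of Hoxa13 or Hoxd13 on the horizontal axis, circle area growing with the within-library percentile and grey lines at the starts of gene records. In HoxA the circles at Hoxa3 and Hoxa9 are absent from the DN2 rows and the circle at Hoxa5 from all Delta1-cultured rows, and in HoxD the 3 IgG rows are empty.

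Counts of peaks across whole clusters differed between the deposited lists and lists of equal length. In HoxA, with 50 kb on each side, there were 12, 11 and 14 peaks in LSK, 17 and 14 in DN1, 11 and 6 in DN2a, 7 and 15 in DN2b and 12, 7 and 14 in IgG. These ranges overlapped. At equal list lengths they were 9, 9 and 10 in LSK, 7 and 9 in DN1, 3 and 2 in DN2a, 4 and 0 in DN2b and 11, 7 and 11 in IgG, and all 4 DN2 libraries lay below the other 8. In HoxB there were 11, 9 and 13 peaks in LSK, 17 and 13 in DN1, 11 and 13 in DN2a, 11 and 17 in DN2b and 9, 8 and 8 in IgG. At equal lengths there were 5, 7 and 5 in LSK, 3 and 4 in DN1, 3 and 4 in DN2a, 4 and 3 in DN2b and 6, 8 and 5 in IgG. At equal lengths all 6 Delta1-cultured libraries lay below the other 6, whereas in the deposited lists their counts overlapped with LSK and lay above IgG. HoxC held 4 to 6 peaks in LSK, 6 and 9 in DN1, 4 and 4 in DN2a, 4 and 10 in DN2b and 1 to 3 in IgG, and at equal lengths no library held more than 2. HoxD held 5, 7 and 9 peaks in LSK, 7 and 4 in DN1, 3 and 3 in DN2a, 3 and 7 in DN2b and 0 in each IgG library. At equal lengths the LSK libraries held 3, 4 and 2 HoxD peaks, the DN libraries 0 or 1, and the IgG libraries 0. No test was run on these counts.

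**Figure D4:**
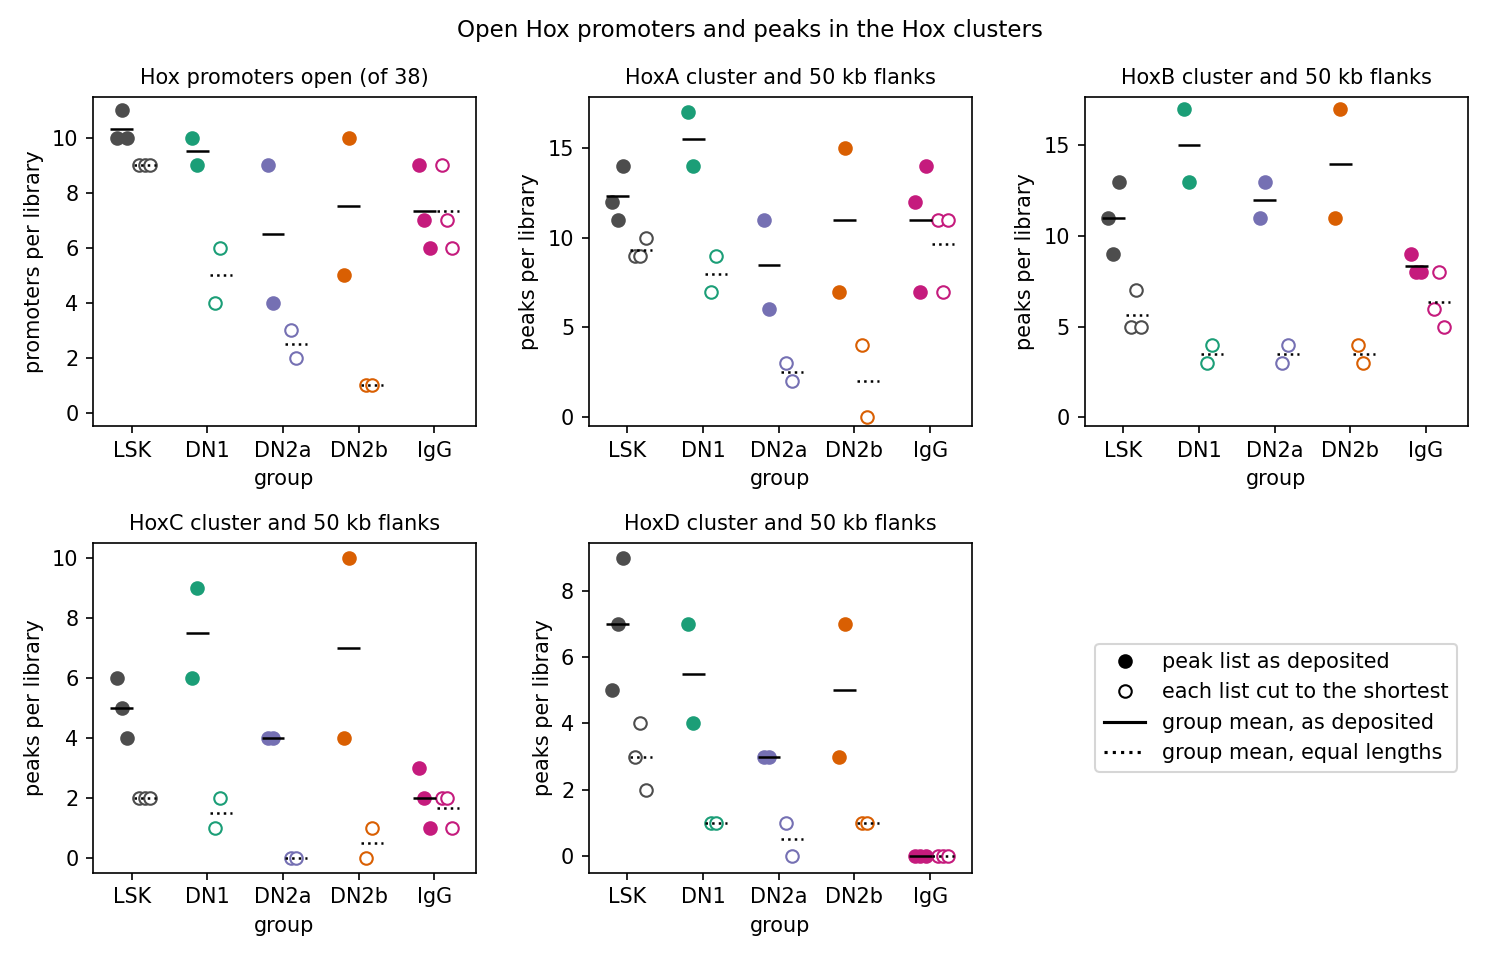
Number of open Hox promoters and of peaks in each Hox cluster with 50 kb flanks (points are libraries by group, filled for the lists as deposited and open for lists reduced to the 32952 highest-scoring peaks, lines are group means). At equal lengths the DN2 points for HoxA lie between 0 and 4, below the other groups at 7 to 11, and IgG points for HoxD are at 0 at both settings.

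The 4 windows held 80 consensus DHSs, regions formed by merging overlapping peaks of the 12 libraries, with 21 in HoxA, 31 in HoxB, 17 in HoxC and 11 in HoxD. Open in all 12 libraries were 7 of them (8.75%, beside 7.68% of all DHSs), 2 in HoxA, 4 in HoxB, 1 in HoxC and none in HoxD. Open in no IgG library were 48 (60%, beside 70.3% of all DHSs), among them all 11 of HoxD, 18 of HoxB, 14 of HoxC and 5 of HoxA. The share over the 4 clusters was thus below that of all DHSs. Of the 80, 55 had peaks in at least 2 libraries and were tested. In the contrast of Delta1-cultured against LSK and IgG libraries 2 were called, beside 0.522% of all tested DHSs called lower and 9.24% called higher. The first was the Hoxa5 site (exact permutation test, adjusted p = 0.0265, lower). The second, at -25.1 kb from Hoxc13, was higher, with percentiles from 1.04 to 5.03 in the 6 Delta1-cultured libraries and no peak in the others (exact permutation test, adjusted p = 0.0265), values at the bottom of each list. It lost its call when an IgG library or either LSK library 2 or LSK library 3 was left out.

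No Hox DHS was called in the contrasts of DN2 against LSK and DN1, of LSK against all cultured libraries or of IgG against Delta1-cultured libraries, and no DHS of the series was (0% called in each, smallest adjusted p 0.179, 0.164 and 0.0523 by the exact permutation test). At an unadjusted p under 0.05 there were 12, 8 and 12 of the 55 Hox DHSs in these contrasts (21.8%, 14.5% and 21.8%), beside 13.8%, 8.02% and 29.0% of all DHSs tested. A contrast of IgG against all other libraries, chosen after seeing the data, called 5 of the 55 lower in IgG, beside 11.6% of all tested DHSs. They were the Hoxd3os1 and Haglr sites, the Hoxb6 intron site, the Hoxc8 upstream site and the site at the inner Hoxc5 start, each with an adjusted p of 0.0289, and none was called in the fits that left out an IgG library. IgG lists were the shortest, and the part of list length in these differences was not tested.

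The CpG content of Hox promoters was compared with that of all promoters. The observed/expected CpG ratio, taken over 2 kb around the start, had a median of 0.595 over the 38 Hox promoters and of 0.478 over all coding promoters. Among promoters open in at least 1 library the median was 0.653 for Hox genes and 0.605 for all genes. Among promoters open in none it was 0.553 for Hox genes and 0.193 for all genes. Of all promoters with a ratio of at least 0.6, 93.2% of 7448 were open in at least 1 library, and of the Hox promoters with such a ratio 8 of 19 were (42.1%).

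The promoters of known Hox partners and regulators were read beside them. Meis1, Pbx2, Pbx3, Pbx4 and Pknox1, which encode homeodomain partners of Hox proteins, were open in all 12 libraries. Pbx4 was lower in IgG, with a mean of 72.2 beside values from 95 to 98.7 elsewhere (IgG against Delta1-cultured, exact permutation test, adjusted p = 0.0309). Of the upstream activators Kmt2a, Men1, Psip1 and Dot1l, members or partners of the MLL pathway, were open in all 12 libraries, whereas Cdx1, Cdx2 and Cdx4, caudal-type activators of Hox genes in the embryo, were open in none. Men1 was called higher in Delta1-cultured libraries (exact permutation test, adjusted p = 0.0272), beside 12.8% of all promoters. In IgG against Delta1-cultured libraries the difference was -51.5 points for Psip1 and -10.9 for Men1 (exact permutation test, adjusted p = 0.0309 for each). That stands beside 37.5% of all promoters called lower and a median difference of -10.3 points over all promoters tested. Kmt2a, which ran the other way (14.5 points), and Dot1l (-2.73 points) were not called in that contrast. All 7 Polycomb promoters (Ezh1, Ezh2, Eed, Suz12, Bmi1, Ring1 and Rnf2) were open in every LSK and Delta1-cultured library and 6, 6 and 5 of them in IgG. In the contrast of IgG against Delta1-cultured libraries 3 of the 7 were called (Ezh1, Ring1 and Rnf2, each lower in IgG with an adjusted p of 0.0309), beside 37.5% of all promoters called lower. At equal list lengths no promoter of the series was called in that contrast. The calls of Pbx4, Psip1, Men1, Ezh1, Ring1 and Rnf2 in it were thus lost. Of the microRNA genes within the clusters, Mir196b, Mir196a-1, Mir196a-2 and Mir10b had no peak within 1 kb of the hairpin in any library, and Mir10a had one in 2 of the 3 IgG libraries.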

How the data were processed

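The authors digested nuclei with DNase I, aligned read pairs to mm10 (BWA 0.7.12 per the submitters' processing notes), and ran hotspot2 on each library separately, keeping peaks at a false discovery rate of 0.05. The deposited score of each 150 bp peak, a whole number from 1 to 150 with no stated scale, served only to rank peaks within a list. The lists hold no read totals, so no counting interval can be given.

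Peaks on 20 chromosomes (autosomes and X) were assigned to starts of GENCODE M21 gene records within 1 kb. The release used by the study is an earlier one. Differences in percentile were tested by two-sided exact permutation tests over libraries, for 13606 promoters with a peak and for 114527 consensus DHSs (overlap of at least 1 bp) with peaks in at least 2 libraries. The 5-group test of promoters enumerated every division of the 12 libraries. P-values were adjusted by the Benjamini-Hochberg method over all features tested, with a threshold of 0.05. Libraries were treated as exchangeable, and p-values measure only the spread between these libraries. Tests were checked on simulated data. Python 3.11.15, numpy 2.4.6, pandas 2.3.3 and scipy 1.17.1 were used. The values described in every library are those of members called in a contrast, of 8 members named in the plan (Hoxa5, Hoxa7, Hoxa9, Hoxa10, Hoxb3, Hoxb4, Hoxb5 and Hoxc4) and of DHSs called or open in all libraries, and other members were added after their values were seen. Members and lists were chosen with earlier results of these data known. The alternatives were equal list lengths, the upper 50% of each list by score, windows of 500 bp and 2.5 kb, every coding start, presence alone, no filter, flanks of 0 or 100 kb, merging of peaks that overlap by 50 bp or lie within 150 bp, and leaving out each library. The contrasts of DN2 and of IgG against all other libraries were chosen after seeing the data. For 1 further Hox gene, and for some results on partner genes and site sequences, nothing is reported here.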

Additional observations from a re-analysis of the deposited data

How the results depend on the processing

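No paired analysis was possible because the labels give no replicate numbers that groups share. The mean number of open Hox promoters was 9 in LSK, 5 in DN1, 2.5 in DN2a and 1 in DN2b at equal list lengths. With the upper 50% of each list it was 8.67, 7, 2.5, 2.5 and, in IgG, 4. A 500 bp window gave 9.33 in LSK and 7.5 in DN1, a 2.5 kb window 14.3 in LSK, 12.5 in DN1 and 12 in DN2b, and every coding start 11.3 in LSK and 11 in DN1.

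Peaks per cluster in DN2 minus LSK were -2.58 in HoxA, 2 in HoxB, 0.5 in HoxC and -3 in HoxD. They became -7.08 in HoxA and -2.17 in HoxB at equal lengths, -1 in HoxB and -0.5 in HoxD in the upper 50%, and 4.83 in HoxB with 100 kb flanks. In IgG minus LSK they were -1.33, -2.67, -3 and -7 in the same order. Equal lengths gave 0.667 in HoxB, -0.333 in HoxC and -3 in HoxD, and the upper 50% gave -1.67 in HoxC and -2 in HoxD. HoxC without flanks gave -1.67, and 100 kb flanks gave -7.33 in HoxB and -9 in HoxD. The sign of these differences turned in HoxB at equal lengths in both comparisons and, in DN2 minus LSK, also in the upper 50%. It turned in HoxA in IgG minus LSK at equal lengths (0.333) and without IgG library 2 (0.667). In HoxC it turned in DN2 minus LSK at equal lengths (-1.75), in the upper 50% (-1.42), without flanks (-0.167) and without DN2b library 2 (-1).

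In the Delta1 contrast the main count of 1 of 14 Hox promoters called became 2 of 10 at equal lengths (Hoxa5 and Hoxa7, beside 5.79% of all tested promoters) and 0 of 9 with the upper 50% (13.7% of all). In IgG against Delta1-cultured it became 0 of 10 at equal lengths, where no promoter at all was called, and 2 of 22 with a 2.5 kb window, which added Hoxb6 (38.1% of all). In the added contrast of IgG against all others, where Hoxa5 was called, it became 2 of 22 with that window (42.3% of all). The 5-group count of 3 became 5 of 22 with a 2.5 kb window (21.8% of all) and 1 of 38, Hoxa5, with no filter (4.22% of all). At equal lengths and in the upper 50% it was 3 as well, with Hoxa10 in place of Hoxa5. With presence alone these tests called 0 Hox promoters and 0% of all promoters. Leaving out 1 library gave from 0 to 2 in the first, second and last of these tests and from 0 to 1 in the added contrast. Hoxa5 lost its call in both IgG contrasts without any 1 IgG library, and in the added one also without any 1 Delta1-cultured library, where Hoxa10 was called without DN2a library 2 and Hoxb5 without DN2b library 1 instead. Hoxb4 was called besides Hoxa5 without LSK library 1 in the Delta1 contrast and without DN2a library 1 in IgG against Delta1-cultured. In the 5-group test only Hoxa5 was called without an LSK library, only Hoxa3 without an IgG library, and none without a DN1 or DN2a library.

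The 2 of 55 tested DHSs called in the Delta1 contrast became 5 of 27 at equal lengths (9.08% of all tested DHSs), among them the Hoxa4, Hoxa5, Hoxa7 and Hoxa9 sites, and 0 of 24 with the upper 50% (11.3% of all) or presence alone (0%). At equal lengths 6 of the 27 were called in IgG against Delta1-cultured (24.2% of all), and in the added contrasts 3 in DN2 against all others (6.69% of all), the Hoxa7 and Hoxa9 sites among them, and 3 in IgG against all others (19.6% of all). In the added contrasts the upper 50% gave 1 each (4.64% and 18.9% of all), and IgG against all others gave 9 of 54 when merging within 150 bp (18.5% of all) and 0 with presence alone (0%). Leaving out 1 library gave from 1 to 3 in the Delta1 contrast and from 0, without any 1 IgG library, to 7, without DN2b library 1, in IgG against all others. The cause of these changes was not tested.

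The main limits are the unknown depth, the peak lists that differed 3.39-fold in length, and the 2 or 3 libraries per group. A missing peak says that none was called, not that chromatin was closed, and least so in the short IgG lists. Libraries that share an isolate could not be named, so tests treat all as independent. Hoxc5 and Hoxc10, and Hoxd3 and Hoxd4, share promoter windows at their record starts and cannot be told apart there.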
